A study of Mus musculus with 15 samples.

Results

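Molecular chaperones and their partners in the endoplasmic reticulum (ER), the mitochondria and the cytosol were examined in cultured mouse cardiomyocytes. The set was a list of 43 gene symbols, made up of 26 ER, 5 mitochondrial and 12 cytosolic genes. Of these, 42 were among the 14337 genes of the expression table, and Derl3 was not analysed here. All 42 had a mean log2 RPKM (reads scaled to gene length and library size) of at least 0, the limit for testing that 12848 genes passed, so no member was lost to the filter. The cells were primary cardiomyocytes from whole hearts of wild-type C57/BL6 pups aged 1 to 3 days. They were cultured for 5 days, kept for 24 h in medium with 0.5% FBS, treated from day 6 and lysed on day 8. The 15 libraries were 3 saline controls (S1 to S3), 4 given 1 µM angiotensin II (AngII, S5 to S8), 4 given 20 nM cilengitide (low-dose cilengitide, ldCil, S9 to S12) and 4 given both (AngII + ldCil, S13 to S16). AngII is a peptide hormone used to enlarge cardiomyocytes in culture, and cilengitide is a cyclic peptide that binds αv integrins.

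Chaperones hold newly made or unfolded proteins and let them fold. In the ER, unfolded protein is sensed by IRE1 (encoded by Ern1), ATF6 and PERK, and the resulting unfolded protein response raises the ER chaperones, the disulphide isomerases and the machinery that sends misfolded protein out for degradation. Cytosolic chaperones are raised by heat shock factor 1, and mitochondria, which fill much of a cardiomyocyte, have their own HSP60 and HSP70 systems and proteases.

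The promoters of the genes carry different stress motifs, and those of 5 members that the results return to are shown here. RefSeq windows from 250 bases before to 50 bases after the start (GRCm38.p6) were matched for 34 of the 43 symbols. The ER stress element, CCAAT and CCACG with 9 bases between them on either strand, was in the windows of 9 of 22 ER members (40.9%) and in those of 37 of 27025 genes overall (0.137%). These 9 were Calr, Canx, Creld2, Derl3, Dnajc3, Hsp90b1, Hspa5, Pdia6 and Syvn1. The paired heat shock unit, GAANNTTC or TTCNNGAA with overlaps allowed, was in 6 of 8 cytosolic (75%), 3 of 4 mitochondrial (75%) and 0 of 22 ER members, against 17.0% of all genes. TGATGNAA, the core of the element bound by ATF4 and CHOP, was in 1 of 22 ER members, Herpud1 (4.55%), in 0 of 8 cytosolic and 0 of 4 mitochondrial members, and in 4.51% of all genes. In the runs below, capitals mark the ER stress element in Hspa5 (chr2:34771840-34772139, plus strand) and Hsp90b1 (chr10:86705395-86705694, minus strand), and the heat shock units in Hspe1 (chr1:55087898-55088197, plus strand), Hspa1a (chr17:34972107-34972406, minus strand) and Hspa1b (chr17:34959189-34959488, minus strand).
Hspa5: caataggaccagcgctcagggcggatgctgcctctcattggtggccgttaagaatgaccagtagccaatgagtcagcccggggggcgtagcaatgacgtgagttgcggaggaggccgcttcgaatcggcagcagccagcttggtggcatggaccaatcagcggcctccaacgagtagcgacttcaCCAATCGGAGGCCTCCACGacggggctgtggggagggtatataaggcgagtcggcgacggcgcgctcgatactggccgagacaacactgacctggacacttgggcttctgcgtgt
Hsp90b1: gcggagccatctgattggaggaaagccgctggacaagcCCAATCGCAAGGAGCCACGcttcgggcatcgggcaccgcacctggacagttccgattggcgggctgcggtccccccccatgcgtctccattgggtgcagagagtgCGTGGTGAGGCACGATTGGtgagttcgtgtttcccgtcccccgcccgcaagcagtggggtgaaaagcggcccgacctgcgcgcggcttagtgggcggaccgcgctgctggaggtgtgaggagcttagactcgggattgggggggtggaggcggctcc
Hspe1: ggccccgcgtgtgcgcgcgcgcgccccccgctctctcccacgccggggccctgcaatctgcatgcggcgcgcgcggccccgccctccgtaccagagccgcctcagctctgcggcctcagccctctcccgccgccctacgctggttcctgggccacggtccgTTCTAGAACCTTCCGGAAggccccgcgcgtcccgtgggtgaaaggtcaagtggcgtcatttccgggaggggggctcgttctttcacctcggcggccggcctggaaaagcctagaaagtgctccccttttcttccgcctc
Hspa1a: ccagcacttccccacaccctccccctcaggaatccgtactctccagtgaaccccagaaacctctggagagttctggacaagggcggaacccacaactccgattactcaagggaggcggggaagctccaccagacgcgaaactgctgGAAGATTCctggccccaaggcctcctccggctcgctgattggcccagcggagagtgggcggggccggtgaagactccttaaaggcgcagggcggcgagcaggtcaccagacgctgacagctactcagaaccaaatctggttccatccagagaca
Hspa1b: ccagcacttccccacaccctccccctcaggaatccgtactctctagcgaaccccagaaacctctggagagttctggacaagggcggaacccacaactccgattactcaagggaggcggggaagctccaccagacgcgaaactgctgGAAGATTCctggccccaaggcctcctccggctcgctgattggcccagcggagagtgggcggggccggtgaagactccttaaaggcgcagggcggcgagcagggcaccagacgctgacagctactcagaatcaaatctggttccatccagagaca
Hsp90b1 holds 2 ER stress elements, 1 on each strand, and Hspa5 holds 1. Hspe1 and Hspd1 lie head to head on chromosome 1. The Hspd1 window at 55087883-55088182 shares 285 bases with the Hspe1 window. The same run of 3 overlapping heat shock units serves as a match for both. The other Hspd1 window, at 55088194-55088493 around the annotated start at 55088243, holds 0 heat shock units. The annotated ends of Hspd1 and Hspe1 overlap by 112 bases. The Hspa1a and Hspa1b windows are identical at 296 of 300 positions, and the genes are 9951 bases apart. Of the 50-base words of the Hspa1a and Hspa1b exons, 58.8% and 62.3%, respectively, occur in the other gene, so the levels of each are uncertain. A motif match is a run of letters and does not show that a factor binds there.

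The authors' conditional quantile normalisation had been applied to the log2 RPKM, a step that adjusts for the length and GC content of genes library by library, and the depth of the libraries is unknown. The 12 cardiomyocyte markers averaged between 8.91 and 9.55 in every library, and the 10 fibroblast markers between 6.17 (S16) and 7.79 (S13). Libraries differed in ways that crossed the treatments, but not evenly. The first principal component held 49.0% of the variance and put S1, S3, S5, S9 and S10 at one end (37.3 to 47.9) and S6, S7, S11, S12 and S15 at the other (−42.0 to −38.0). Those at the high end also had the highest mean of 22 interferon response genes, 1.97 to 2.64 above the mean of all libraries. On that scale the interferon mean was 2.07, 0.41 and 2.64 in the controls. With AngII (S5 to S8) it was 1.97, −1.75, −1.65 and −0.79. It was 2.61, 2.31, −1.85 and −1.45 with ldCil, and −0.41, −0.60, −1.73 and −1.79 with AngII + ldCil. Of the 22 genes, 19 had all AngII + ldCil libraries below all controls, where 6.11% of all genes did. In that comparison the interferon difference and the treatment cannot be told apart. With AngII, every library except S5 also had an interferon mean below all controls. There the interferon difference and AngII can be told apart only in part. S5 (AngII) differed from the rest in a trend with gene length, −0.09 log2 RPKM per doubling of length against −0.01 to 0.02 elsewhere, and had the highest macrophage marker mean (5.42, against 2.17 to 4.81). S11 (ldCil) had the highest centred mean of the cytosolic members (0.41) and the lowest of the ER members (−0.19). The part of these differences in the results below was not tested beyond the values given beside them.

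**Figure D1:**
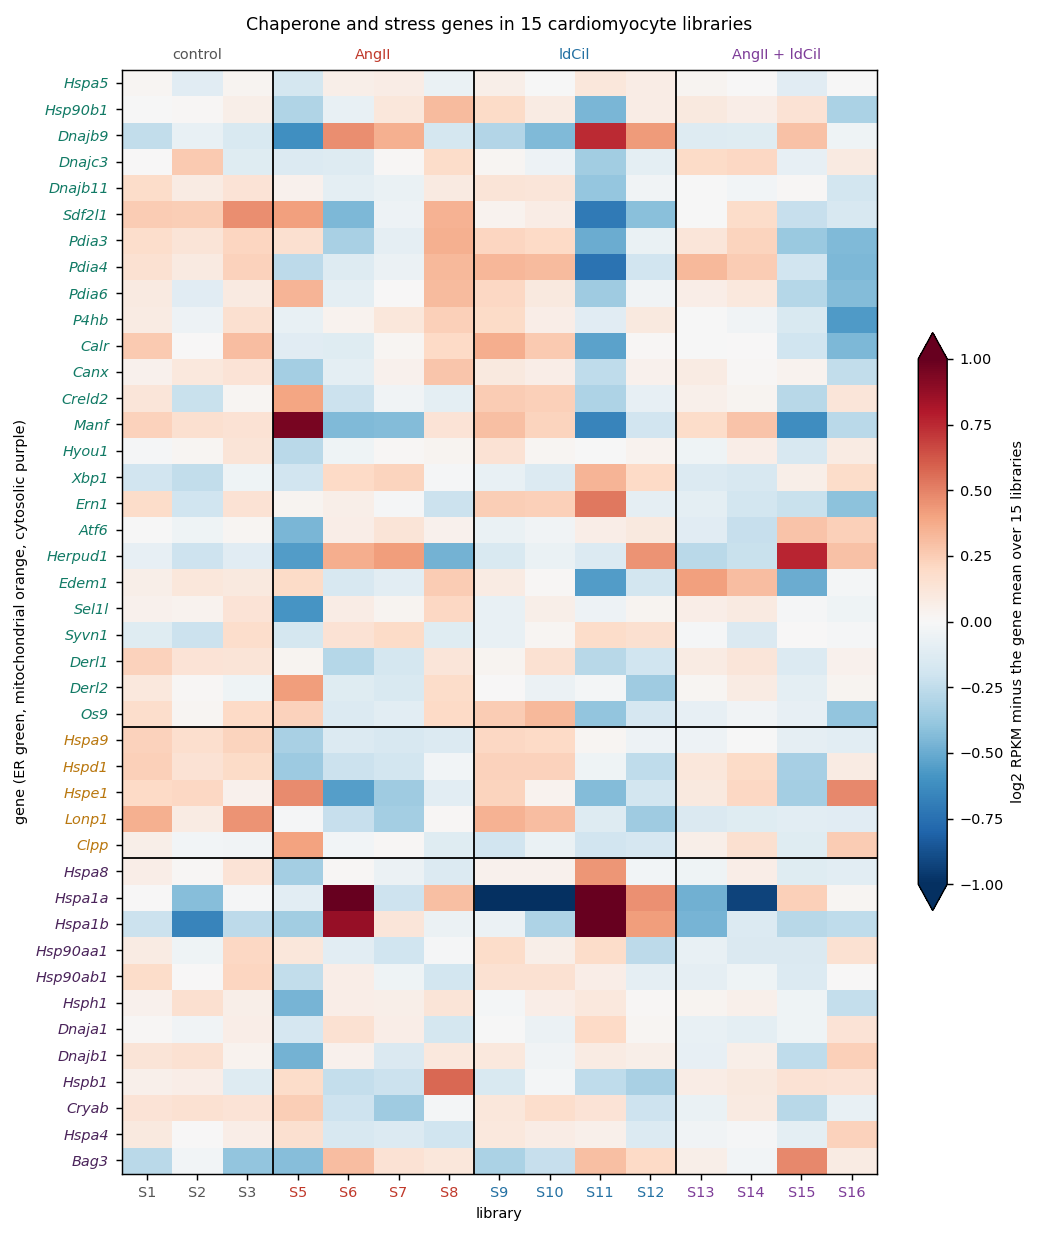
Level of the 42 members (rows, in the order of the compartments) in the 15 libraries (columns, by treatment), as log2 RPKM minus the gene's mean over the libraries; the colour scale ends at −1 and 1. S5 and S11 hold many of the strongest colours, Hspa1a and Hspa1b vary most, and Hspa9 is red in the 3 controls and blue in the 4 AngII libraries.

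Levels are RPKM and therefore per length, which allows genes to be compared. Cytosolic Hsp90ab1, the constitutive HSP90, was highest, with a mean log2 RPKM of 10.09 ± 0.14 (SD, n = 15). It was 10.27, 10.09 and 10.30 in the controls, 9.84, 10.15, 10.04 and 9.90 with AngII, 10.24, 10.24, 10.15 and 9.99 with ldCil, and 9.99, 10.04, 9.95 and 10.09 with both. The AngII and AngII + ldCil libraries lay mostly below the controls but overlapped them. Hspa8, the constitutive HSC70, followed at 9.68 ± 0.17. Below it, Hspa5 (BiP, the ER HSP70; 9.14 ± 0.08), Cryab (αB-crystallin, a small heat shock protein abundant in heart; 9.14 ± 0.19) and Hspa9 (mortalin, the mitochondrial HSP70; 8.96 ± 0.17) had overlapping ranges over the libraries.

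Among the other cytosolic members, Hsp90aa1 (inducible HSP90) averaged 8.40, Hspa4 (an HSP70 nucleotide exchange factor) 7.33, Hspb1 (HSP27) 7.31, Bag3 (a co-chaperone of HSP70 and the small heat shock proteins) 6.53, Dnaja1 and Dnajb1 (HSP40 co-chaperones) 6.28 and 4.96, and Hsph1 (HSP110) 5.13. The inducible HSP70 genes were lowest of all members, Hspa1b at 1.78 ± 0.58 and Hspa1a at 1.00 ± 0.82. In the mitochondria, Hspd1 (HSP60) averaged 7.31, Lonp1 (the Lon protease) 6.96, Hspe1 (HSP10, the lid of HSP60) 5.92 and Clpp (the proteolytic subunit of ClpXP) 4.28.

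The ER members ranged from 3.18 to 9.14. After Hspa5 came P4hb (protein disulphide isomerase, 8.80) and the calcium-binding lectin chaperones Calr (8.68) and Canx (8.13), followed by Hsp90b1 (GRP94, the ER HSP90; 7.89). The isomerases Pdia3, Pdia6 and Pdia4 averaged 7.67, 6.35 and 5.25. Hyou1 (GRP170, 5.84) and the BiP co-chaperones Dnajb11 (6.16), Dnajc3 (5.32), Dnajb9 (4.68) and Sdf2l1 (3.18) spanned a wide range. The secreted stress proteins Manf and Creld2 stood at 5.22 and 3.69. Among the sensors and their targets, Xbp1, spliced by IRE1, was at 5.69, Atf6 at 5.63 and Ern1 at 3.98. The degradation genes Derl1, Sel1l, Herpud1, Os9, Edem1, Derl2 and Syvn1 were at 6.12, 5.62, 5.53, 5.22, 4.58, 4.54 and 4.43.

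With AngII, 3 of the 4 members whose libraries lay wholly below control were mitochondrial. Of the 42 members, 29 had a mean below control, where 5945 of 12848 genes did. Against the same controls, 28 did with ldCil (6391 of all genes) and 30 with both agents (5342 of all genes). The median log2 fold change was −0.39 for the 5 mitochondrial, −0.13 for the 12 cytosolic and −0.07 for the 25 ER members, against 0.02 for all genes tested. With the interferon mean as a covariate the mitochondrial and ER medians were −0.19 and 0.02. Without S5 the cytosolic median was −0.05, and the ER median ran from −0.03 (without S6) to −0.12 (without S8). By limma, 0 members passed an adjusted p of 0.05 (0% of all genes; the smallest adjusted p was 0.782). At an unadjusted p under 0.05, 3 members were lower, all mitochondrial (Hspa9, Hspd1 and Lonp1), against 2.63% of all genes, and 0 were higher, against 3.41%. All 4 AngII libraries lay below all 3 controls for Hspa9, Hspd1, Lonp1 and Derl1, 4 of 42, where 3.68% of all genes did so, and 0 members lay wholly above, against 5.06%. As RNA came from whole cultures, fewer cells of a type and less RNA per cell cannot be told apart. No source used here says that the libraries of a treatment came from separate cultures, so a p-value here speaks only of the scatter among the libraries at hand, and that scatter may be technical.

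Hspa9 (mortalin) had the smallest p of the 42 members with AngII. Its log2 RPKM was 9.19, 9.13 and 9.18 in the controls, 8.64, 8.83, 8.80 and 8.83 with AngII, 9.17, 9.16, 8.98 and 8.91 with ldCil, and 8.91, 8.96, 8.87 and 8.86 with both. The AngII libraries were the 4 lowest of the 15, the AngII + ldCil libraries lay between them and the controls without overlap with either, and ldCil spanned the gap. The log2 fold change with AngII was −0.39 ± 0.10 (SE), 23.8% lower (limma, unadjusted p = 0.0021, adjusted p = 0.782). Of the variance of Hspa9 over the libraries, 78.8% lay between treatments, against a median of 18.3% over all genes tested and 41.2%, 18.2% and 23.0% over the mitochondrial, ER and cytosolic members. Over 26 alternative settings the fold change stayed between −0.41 and −0.35, with an unadjusted p of at most 0.011. Several of these, such as another filter or an ldCil library left out, cannot move this fold change. S5, the AngII library with a high interferon mean and the length trend, was the lowest for Hspa9. Without S5 and S11 it was −0.35, with the length trend removed −0.41, and with the interferon mean as a covariate −0.35.

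Hspd1 (HSP60, chromosome 1, 55077835 to 55088243, minus strand) gave 7.55, 7.45 and 7.50 in the controls, 6.95, 7.09, 7.13 and 7.28 with AngII, 7.54, 7.54, 7.27 and 7.06 with ldCil, and 7.43, 7.50, 6.98 and 7.39 with both. The AngII libraries were all below the controls, while S11, S12 and S15 of the other treatments also reached the AngII range. The log2 fold change with AngII was −0.39 ± 0.15 (SE; limma, unadjusted p = 0.0189), and −0.28 with the interferon mean as a covariate (unadjusted p = 0.0946). Without S1 the unadjusted p by limma was 0.0565. Its partner Hspe1 (HSP10), which lies head to head with Hspd1, ranged more widely within treatments. It was 6.12, 6.13 and 5.96 in the controls, 6.39, 5.37, 5.56 and 5.82 with AngII, 6.14, 5.96, 5.49 and 5.73 with ldCil, and 6.01, 6.13, 5.58 and 6.40 with both. S5 was high for Hspe1 and lowest for Hspd1, and their exon lengths in the annotation are 1474 and 2642 bases. The Hspe1 fold change with AngII was −0.28 ± 0.23, and without S5 and S11 −0.49 (limma, unadjusted p = 0.0221).

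Lonp1 (chromosome 17, 56614297 to 56626887, minus strand) was at 7.32, 7.04 and 7.41 in the controls, 6.95, 6.73, 6.62 and 6.97 with AngII, 7.31, 7.27, 6.83 and 6.61 with ldCil, and 6.82, 6.84, 6.86 and 6.84 with both. The 4 highest libraries, S1, S3, S9 and S10, were 4 of the 5 with the highest interferon means, and S5, the fifth, was not among them. The log2 fold change with AngII was −0.43 ± 0.16 (SE), 26.0% lower (limma, unadjusted p = 0.0173), but −0.19 with the interferon mean as a covariate (unadjusted p = 0.146). Leaving out S1, S3 or S7 gave −0.40, −0.36 and −0.37, with unadjusted p-values of 0.0544, 0.0760 and 0.0515. Clpp did not show the same pattern. It was 4.35, 4.25 and 4.25 in the controls and 4.69, 4.26, 4.29 and 4.17 with AngII, which gave a log2 fold change of 0.07 with a 95% interval of −0.21 to 0.35.

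**Figure D2:**
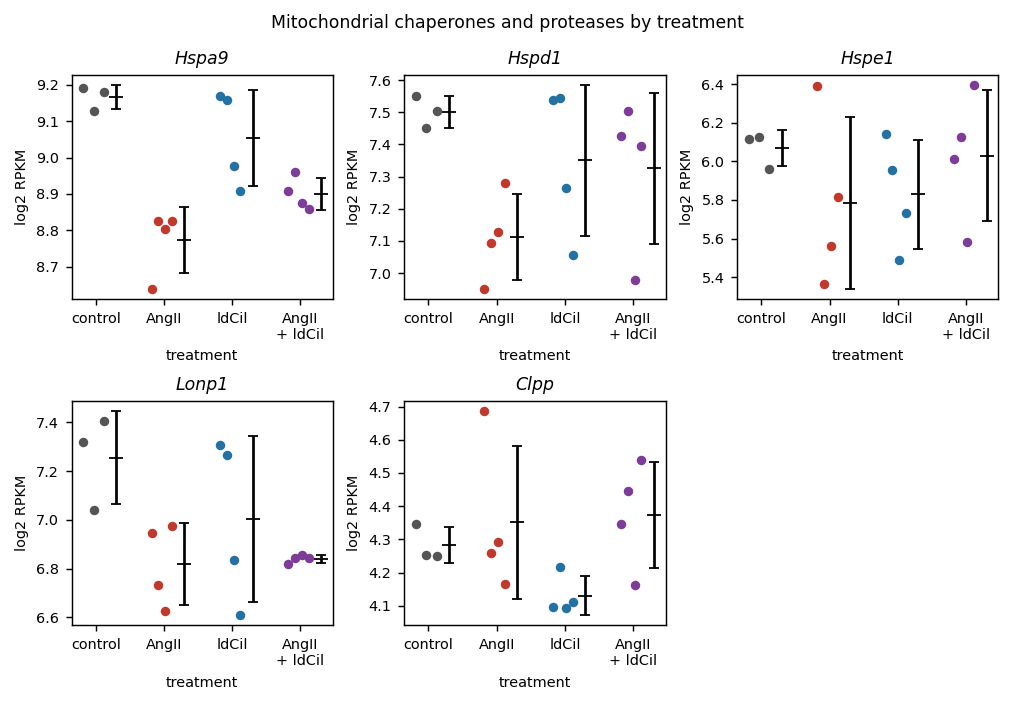
Log2 RPKM of the 5 mitochondrial members in each library (points) by treatment, with the mean ± SD at the right of each group (3 control libraries, 4 of each other treatment; the y axes differ and do not start at 0). The AngII points of Hspa9, Hspd1 and Lonp1 lie below all controls, those of Hspe1 and Clpp spread across them.

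In the ER, 17 of 25 members had a mean below control with AngII, 16 with ldCil and 17 with both. Hspa5, the most abundant, was 9.16, 9.03 and 9.17 in the controls, 8.97, 9.20, 9.21 and 9.08 with AngII, 9.20, 9.14, 9.26 and 9.21 with ldCil, and 9.17, 9.15, 9.03 and 9.14 with both. Its 15 values spanned only 0.29, and the treatments overlapped. The log2 fold change with AngII was −0.00 ± 0.10 (SE), with a 95% interval of −0.23 to 0.22. Hsp90b1, with 2 ER stress elements, was at −0.01 ± 0.17, while the lectin chaperones Calr and Canx were at −0.19 ± 0.19 and −0.12 ± 0.14 and the isomerases Pdia4 and Pdia3 at −0.19 ± 0.25 and −0.15 ± 0.21. None of the 25 ER members had an unadjusted p under 0.05, and their fold changes ran from −0.26 (Sdf2l1) to 0.22 (Xbp1). Derl1, a channel component for the export of misfolded protein, was 6.35, 6.26 and 6.25 in the controls and 6.15, 5.83, 5.94 and 6.24 with AngII, the groups narrowly apart (fold change −0.24, limma, unadjusted p = 0.0782).

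Manf had the largest spread of the ER members. It was 5.45, 5.39 and 5.37 in the controls, 6.18, 4.78, 4.79 and 5.36 with AngII, 5.52, 5.45, 4.56 and 5.04 with ldCil, and 5.41, 5.51, 4.61 and 4.95 with both. The controls lay close together, whereas each other treatment had both high and low libraries, with S5 highest and S11 lowest. S6, S7, S11, S12 and S15, at the low end of the first principal component, were at 4.56 to 5.04 for Manf, and S16 at 4.95. Its fold change with AngII was −0.13 ± 0.32 (SE). Dnajb9 and Herpud1, targets of IRE1 and of ATF6 and ATF4, also split within treatments. Dnajb9 was 4.06, 5.14, 5.03 and 4.50 in the AngII libraries and 4.38, 4.24, 5.42 and 5.10 in the ldCil libraries, around controls of 4.43 to 4.60. S6, S7, S11, S12 and S15 were its highest libraries (4.97 to 5.42). For Herpud1, S11 (5.39) was not among the highest. The cause of these splits was not tested.

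Among the cytosolic members, 8 of 12 had a mean below control with AngII, 7 with ldCil and 9 with both. The largest differences in that direction with AngII were those of Hsp90ab1 (−0.24 ± 0.12, SE; limma, unadjusted p = 0.0723) and Cryab (−0.23 ± 0.15). The inducible HSP70 genes lay on the other side but with wide intervals. Hspa1a was 1.01, 0.57 and 0.99 in the controls, 0.89, 2.17, 0.80 and 1.30 with AngII, −0.05, −0.01, 3.03 and 1.46 with ldCil, and 0.52, 0.07, 1.24 and 1.02 with both. Hspa1b was 1.56, 1.12 and 1.52 in the controls, 1.43, 2.65, 1.90 and 1.72 with AngII, 1.72, 1.47, 3.41 and 2.20 with ldCil, and 1.32, 1.64, 1.50 and 1.53 with both. S11 was the highest of all libraries for both genes and S6 the second highest, and the treatments overlapped. The fold changes with AngII were 0.43 ± 0.61 for Hspa1a and 0.52 ± 0.39 for Hspa1b. S11 was also highest for Hspa8 (10.12, against 9.34 to 9.82 in the other libraries), Dnaja1, Hspa5, Dnajb9, Xbp1 and Ern1. It was lowest for Hsp90b1, Pdia3, Pdia4, Calr, Sdf2l1, Dnajc3, Dnajb11, Creld2, Manf, Edem1 and Clpp. Bag3 stood 0.27 ± 0.20 higher with AngII, with S5 (6.11) lowest of all libraries and S6, S7 and S8 (6.64 to 6.84) above the controls (6.13 to 6.50). Its highest libraries were S15, S6, S11, S12 and S7 (6.68 to 7.01), of which S11 and S12 had ldCil without AngII. S1, S3, S9 and S10, with high interferon means like S5, were at 6.13 to 6.30.

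**Figure D3:**
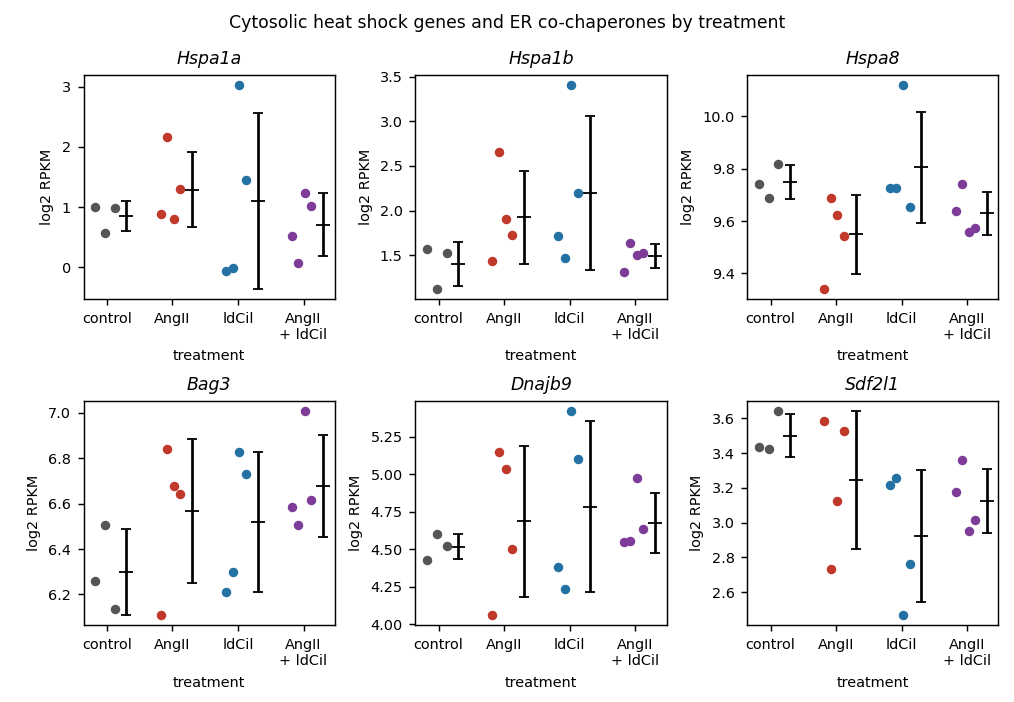
Log2 RPKM of 4 cytosolic and 2 ER members in each library (points) by treatment, with the mean ± SD at the right of each group (3 control libraries, 4 of each other treatment; the y axes differ and do not start at 0). The high ldCil point of Hspa1a, Hspa1b, Hspa8 and Dnajb9 and the low one of Sdf2l1 are the same library, S11.

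Cilengitide alone was compared with control to see what the dose did without AngII. The median log2 fold change was −0.08, −0.15 and −0.03 for the ER, mitochondrial and cytosolic members, and 0.00 for all genes tested. The ER median was 0.00 without S11, and the mitochondrial median −0.09 with the interferon mean as a covariate. By limma 0 members passed an adjusted p of 0.05 (0% of all genes; smallest 0.966), 1 was lower at an unadjusted p under 0.05 (0.49% of all genes were) and 0 were higher (1.46%). That member was Sdf2l1, part of the BiP and ERdj3 complex (chromosome 16, 17130138 to 17132383, minus strand). It was 3.43, 3.42 and 3.64 in the controls, 3.58, 2.73, 3.13 and 3.53 with AngII, 3.21, 3.25, 2.47 and 2.76 with ldCil, and 3.18, 3.36, 2.95 and 3.02 with both. All 8 libraries with ldCil lay below the controls, and the AngII libraries overlapped them. The fold change with ldCil was −0.57 ± 0.23 (SE), 32.9% lower (limma, unadjusted p = 0.0235), and without S5 and S11 −0.42 (unadjusted p = 0.0590). With the interferon mean as a covariate it was −0.37 (unadjusted p = 0.0302) and with library weights −0.29 (unadjusted p = 0.0365). Leaving out S3, S11 or S12 gave −0.50, −0.42 and −0.52, with unadjusted p-values of 0.0801, 0.0765 and 0.0551. Sdf2l1 and Clpp were the 2 members whose ldCil libraries lay wholly below the controls (3.37% of all genes did), and 0 lay wholly above (3.5%). For Hspa9, the ldCil libraries with high interferon means, S9 and S10, were at control levels (9.17 and 9.16), and S11 and S12 were lower (8.98 and 8.91).

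With AngII and ldCil together, compared with the same controls, the mitochondrial members had a median log2 fold change of −0.18, the cytosolic −0.12 and the ER −0.06, against 0.05 for all genes tested. The mitochondrial median was −0.06 without S15 and −0.04 with the interferon mean as a covariate, the cytosolic −0.06 without S14 and −0.07 without S3 or S15, and the ER −0.16 without S13 and −0.12 without S14. By limma 0 members passed an adjusted p of 0.05 (0% of all genes; smallest 0.849). At an unadjusted p under 0.05, 2 members were lower, Hspa9 and Lonp1 (2.92% of all genes were), and 0 were higher (2.7%). Hspa9 stood at −0.27 ± 0.10 (SE; unadjusted p = 0.0231 by limma) and Lonp1 at −0.41 ± 0.16 (unadjusted p = 0.0222). With the interferon mean as a covariate they were −0.21 (unadjusted p = 0.117) and −0.11 (unadjusted p = 0.431). The interferon means of the AngII + ldCil and control libraries did not overlap, so this adjustment cannot separate them from the treatment. Without S1 or S3, Hspa9 was at −0.25 (unadjusted p = 0.0659) and −0.26 (unadjusted p = 0.0595), and Lonp1 at −0.38 (unadjusted p = 0.0658) and −0.34 (unadjusted p = 0.0920). Hspd1 was at −0.18 and Hspe1 at −0.04. Libraries lay wholly below the controls for 7 members, namely Dnajb11, Sdf2l1, Derl1, Os9, Hspa9, Lonp1 and Cryab (6.11% of all genes did), and wholly above for 1, Hspb1 (7.35%).

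**Figure D4:**
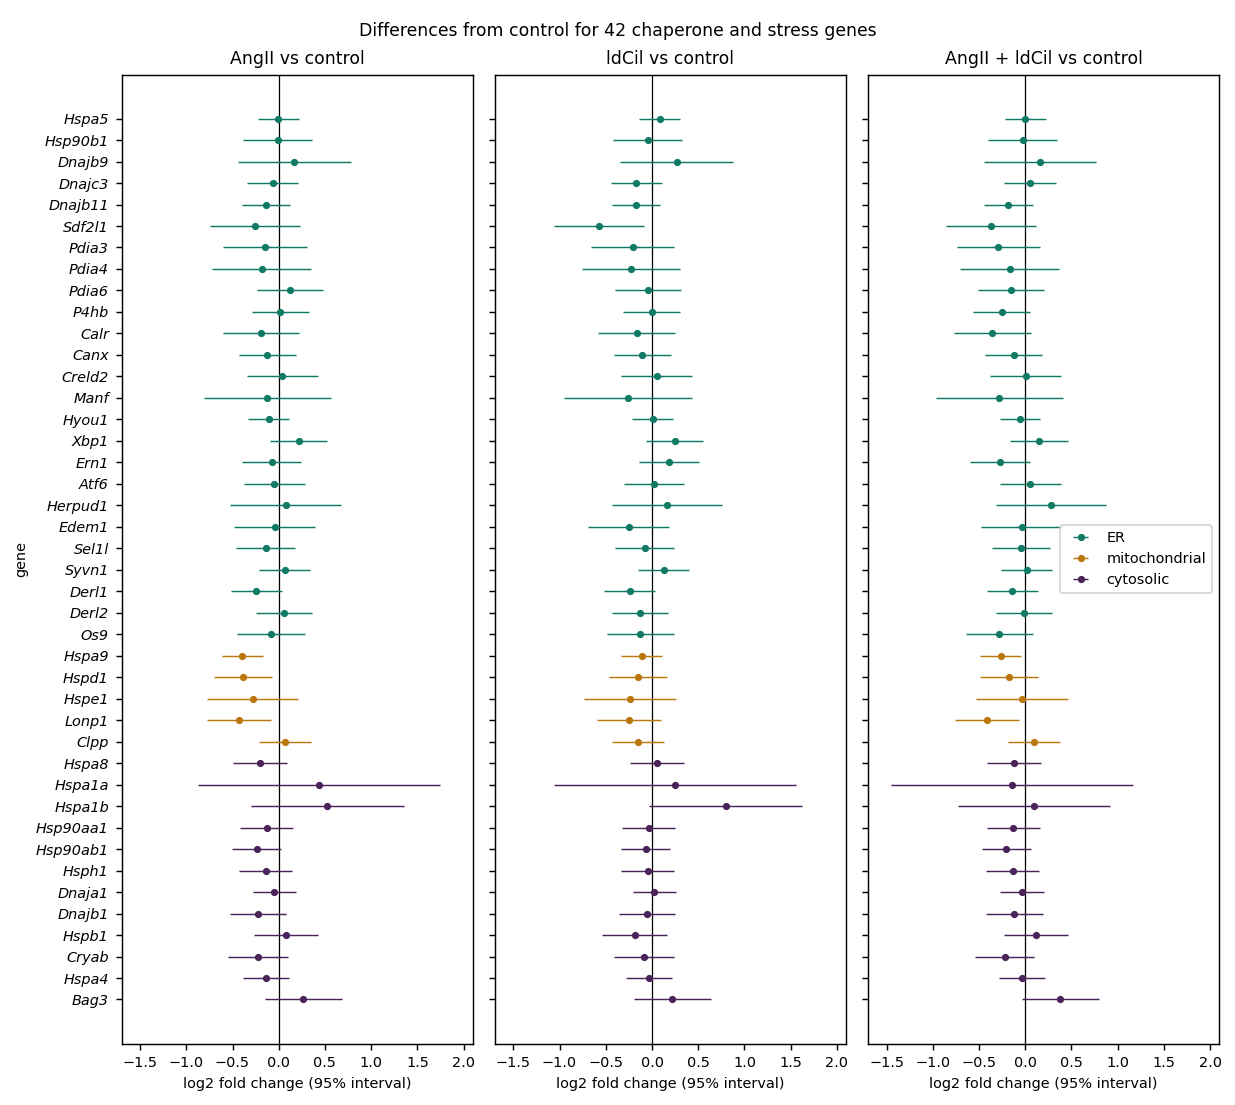
Log2 fold change against control (x axis, points) with the 95% interval from limma (bars) for each of the 42 members (y axis) in the 3 treatments, which share the 3 control libraries. With AngII, the intervals of Hspa9, Hspd1 and Lonp1 lie below 0; with AngII + ldCil those of Hspa9 and Lonp1; with ldCil that of Sdf2l1.

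Whether ldCil altered the chaperones under AngII was addressed by comparing AngII + ldCil with AngII. The median log2 fold change was 0.13 for the mitochondrial, 0.02 for the cytosolic and −0.03 for the ER members, and 0.01 for all genes. All 5 mitochondrial members had a higher mean, as did 6732 of 12848 genes. The AngII libraries are the same that lay low for these members against control. By limma 0 members passed an adjusted p of 0.05 (0% of all genes; smallest 0.9997) and 0 an unadjusted p of 0.05, where 1.61% of all genes were higher and 0.965% lower. Hspa9 was the 1 member whose AngII + ldCil libraries lay wholly above the AngII libraries (0.965% of all genes did), by 0.13 ± 0.10 (SE; unadjusted p = 0.215 by limma), and 0 lay wholly below (0.584%). Hspd1 stood at 0.21 ± 0.14 and Hspe1 at 0.24 ± 0.22, with 95% intervals of −0.08 to 0.51 and −0.22 to 0.70. P4hb was at −0.27 ± 0.13, with S16 (8.23) the lowest of all libraries. Without S5 and S11, 3 members had an unadjusted p under 0.05 by limma, Hspe1 at 0.45 (unadjusted p = 0.0241), P4hb at −0.32 (unadjusted p = 0.0335) and Hspa1b at −0.60 (unadjusted p = 0.0337), where 3.79% of all genes did.

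The AngII by ldCil interaction asks whether the effect of AngII differed with and without ldCil. By limma 0 members passed an adjusted p of 0.05 (0% of all genes; smallest 0.958). At an unadjusted p under 0.05, 1 was negative, Hspa1b (2.02% of all genes were), and 0 were positive (1.84%). Hspa1b was at −1.23 ± 0.53 (SE; unadjusted p = 0.0346 by limma) and depended on single libraries. It was −0.82 (unadjusted p = 0.0535) without S11, −0.99 (unadjusted p = 0.0753) without S6, −1.09 (unadjusted p = 0.0812) without S2 and −1.17 (unadjusted p = 0.0579) without S13. The mitochondrial members were all positive (6704 of 12848 genes were), with a median of 0.27 against 0.02 for all genes. Hspe1 was at 0.48 ± 0.32, Hspd1 at 0.37 ± 0.20 and Hspa9 at 0.24 ± 0.14, and the 95% intervals of all mitochondrial members included 0. The interaction reuses the AngII and control libraries that gave the lower mitochondrial means with AngII, so these signs are not separate evidence. The medians of the ER and cytosolic members were 0.05 and 0.04.

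Genes of the same pathways outside the set were counted in the AngII comparison, where at an unadjusted p under 0.05 by limma 2.63% of all genes were lower and 3.41% higher. Of 20 genes of the PERK and ATF4 branch, 8 were lower and 0 higher, with a median log2 fold change of −0.36. The centred mean of the branch was 0.24, 0.02 and 0.33 in the controls, lowest in S2, the control with the lowest interferon mean. It was −0.22, −0.07, −0.27 and −0.13 with AngII. The dependence of this list on the interferon mean or on single libraries was not tested. Asns (asparagine synthetase) stood at −0.71 ± 0.16 (SE) and Ddit3 (CHOP) at −0.67 ± 0.14, while Atf4 itself was at 0.53 ± 0.44. With both agents, compared with control, 7 of the 20 were lower (2.92% of all genes were), and the median was −0.28, against 0.05 for all genes. Of 21 other genes of mitochondrial folding, import and proteolysis, 0 were lower or higher, the median was −0.01, and the 2 smallest p-values belonged to Spg7 (an AAA protease subunit, 0.27 ± 0.14) and Trap1 (the mitochondrial HSP90, −0.36 ± 0.22). Of 23 other ER genes tested 0 were lower or higher (median −0.03), with Pdia5 at 0.50 ± 0.25 and Mbtps2, which cleaves ATF6, at −0.33 ± 0.20.

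In the cytosol, 1 of 26 other chaperones and co-chaperones was lower, Stip1 (HOP, which links HSP70 and HSP90; −0.50 ± 0.22, SE), and 0 were higher, with Dnajb6 at −0.33 ± 0.16 and a median of −0.02. Of 5 other small heat shock proteins, 1 was higher, Hspb3 (0.75 ± 0.33), beside Hspb2 at 0.24 ± 0.14. Of the 14 subunits of the TRiC chaperonin and prefoldin 0 were lower or higher (median −0.08), with Cct2 at −0.19 ± 0.13 and Cct7 at −0.19 ± 0.19. The interferon response genes all had a mean below control (22 of 22, 8 at an unadjusted p under 0.05, median −2.26), with Irf9 at −1.0 ± 0.42 and Parp14 at −2.26 ± 0.96. Yet 0 of the 22 had all AngII libraries below all controls, where 3.68% of all genes did. The interferon mean of S5 (AngII) was 1.97 above that of all libraries. Of the cell type markers, 1 of 12 for cardiomyocytes (Tnni3, 0.58 ± 0.24, beside Myl3 at 0.38 ± 0.22) and 1 of 4 for smooth muscle (Tagln, 0.59 ± 0.23, beside Myh11 at 0.55 ± 0.42) were higher at that p. Of the 10 fibroblast, 6 macrophage, 6 endothelial and 4 epicardial markers 0 were lower or higher, with Pdgfra at −0.65 ± 0.33 and Dcn at −2.04 ± 1.08, Cd14 at −1.82 ± 1.05 and Csf1r at −0.57 ± 0.41, Flt1 at 0.66 ± 0.38 and Tek at −0.60 ± 0.38, and Upk3b at 1.40 ± 0.72 and Krt19 at 0.59 ± 0.54. The part of these cells in the results was not tested.

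Read by promoter motif, the 8 measured members with an ER stress element had a median log2 fold change with AngII of −0.01, the 13 ER members with a window but no such element −0.08, and the 9 members with a heat shock unit 0.07, against 0.02 for all genes. The heat shock unit group held both Hspd1 (−0.39) and Hspa1b (0.52). With both agents the 3 medians were −0.01, −0.17 and −0.03, against 0.05 for all genes.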

How the data were processed

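Poly(A)-captured RNA of 15 mouse cardiomyocyte libraries was sequenced by the authors. Per the submitters' processing notes, reads were aligned to GRCm38 (mm10) with HISAT2 and counted with HTSeq (versions, annotation and strandedness: not given in the sources used here). Log2 RPKM is the deposited unit, to which the authors had applied conditional quantile normalisation. Counts were not used, so depth and counting precision are unknown. Of the 14337 gene identifiers, 14329 were matched to GENCODE M21. Fits used limma 3.58.1 in R 4.3.3 on the 12848 genes that averaged at least 0 log2 RPKM, with 1 mean per group over all 15 libraries, a trend on mean level and Benjamini-Hochberg adjustment over all genes tested. P-values are 2-sided and ± after a fold change is its SE. Members and lists were chosen with earlier results of these data known.

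Values in every library are given for members at an unadjusted p under 0.05 in any of 5 comparisons and for the member of each compartment with the highest mean and the largest SD, and from each other list the 2 genes with the smallest p with AngII are named. Herpud1, Dnajb9, Derl1, Bag3, Clpp, P4hb and the further genes given were chosen after their values were seen. Promoter windows are from RefSeq. Alternatives were other filters, 1 added to RPKM, quantile normalisation, median centring, only the groups compared, no trend, library weights, the interferon mean as a covariate and each library left out. Leaving out S5 and S11 together and removing the length trend were chosen after seeing the data.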

Additional observations from a re-analysis of the deposited data

Results flagged for a closer look

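In groups of 4 libraries, 1 library lay far from the other 3 for 12 of 126 combinations of member and treatment, 9.52%, where chance alone marks about 1 in 20 and where the same comparison marked 7.79% over all genes tested. With AngII, S5 was apart for Hspa9 (8.639, others 8.80 to 8.83), Atf6 (5.167, others 5.67 to 5.75) and Hsph1 (4.663, others 5.18 to 5.25) on the low side, and for Hspa4 (7.488, others 7.13 to 7.19) on the high side. With ldCil, S11 was apart for Hspa8 (10.12, others 9.66 to 9.73) on the high side and Canx (7.875, others 8.18 to 8.23) on the low side. S12 was high for Herpud1 (5.973, others 5.37 to 5.46) and low for Cryab (8.933, others 9.26 to 9.32), and S10 was high for Clpp (4.217, others 4.09 to 4.11). With AngII + ldCil, S16 was low for Hsp90b1 (7.573, others 7.96 to 8.03) and Os9 (4.821, others 5.14 to 5.18), and S14 was low for Syvn1 (4.292, others 4.43 to 4.44). The controls, with 3 libraries, were not examined in this way. All values are log2 RPKM.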

How the results depend on the processing

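The fold changes of Hspa9, Hspd1, Lonp1, Sdf2l1 and Hspa1b that had an unadjusted p under 0.05 kept their direction under the alternatives run. Settings that change only the filter, the trend or a library of another group cannot move a fold change between a pair of groups. The counts of members at an unadjusted p under 0.05 by limma were 3 (AngII), 1 (ldCil), 2 (AngII + ldCil), 0 (AngII + ldCil against AngII) and 1 (interaction). With library weights, from 0.113 in S5 to 7.01 in S1, they were 24, 3, 13, 21 and 15, of which 23, 0, 9, 13 and 7 had an adjusted p under 0.05. The same fit gave an adjusted p under 0.05 to 48.6%, 0.0233%, 18%, 31.5% and 18.6% of all genes, and whether its p-values hold was not tested. Without S5 and S11 the counts were 9, 0, 4, 3 and 2 (15.5%, 1.34%, 9.71%, 3.79% and 4.66% of all genes), 0 of which passed after adjustment, and the ER median of the interaction was −0.06625. The 9 with AngII were Hspa9, Hspd1, Hspe1, Lonp1, Derl1 and Cryab, lower, and Xbp1, Bag3 and Hspa1b, higher. With the interferon mean as a covariate 5 members passed with AngII (5.55% of all genes) and the mitochondrial median was −0.1891. In a fit of only the groups compared 6 passed with AngII + ldCil (10.7% of all genes). The interaction count was 2 with the length trend removed (4.09% of all genes), and 0 among genes averaging at least 2 log2 RPKM (3.82%), where Hspa1b was not tested. Its fold change was −0.79 with library weights.

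With 1 library left out, the AngII count ran from 1 (without S1, 2.67% of all genes) to 7 (without S5, 12.8%). The ldCil count ran from 0 (without S3, S11 or S12, 1.18%, 0.809% and 1.69%) to 3 (without S9 or S10, 4.04% and 4.31%), and was 2 without S6 (2.04%). The AngII + ldCil count ran from 0 (without S1 or S3, 2.36% and 1.63%) to 4 (without S2, 7.17%), and that against AngII from 0 to 2 (without S5 or S14, 2.63% and 2.3%). The interaction count ran from 0 (without S2, S6, S11 or S13, 2.26% to 3.2%) to 3 (without S5, S8 or S15, 7.13% to 7.22%). The ER median ran from −0.158 (without S13) to −0.039 with AngII + ldCil and from −0.058 (without S11) to 0.095 in the interaction. The cause of these changes was not tested. The labels number no replicates, and no paired analysis was possible because nothing ties libraries of different treatments together. With 3 or 4 libraries a group and unknown depth, small differences were not detectable.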
